A study of Mus musculus with 6 samples.

Results

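The 41 genes described here encode subunits of the Polycomb repressive complexes PRC2 and PRC1, trithorax-group histone methyltransferases with their COMPASS partners, the histone demethylase KDM6B, and the enzymes that write, maintain and remove DNA methylation. They were taken as a list of symbols, matched by Entrez Gene ID, and all 41 had a row among the 27179 genes counted. RNA from 3 immortalized mouse embryonic fibroblast (MEF) lines of the C57BL/6 strain was sequenced after selection of poly-A transcripts, 2 libraries to a line. Cry/Per_KO cells carry homozygous mutations of Cry1, Cry2, Per1 and Per2, Per/Nr1d_KO cells of Per1, Per2, Nr1d1 and Nr1d2, and Cry/Per/Nr1d_KO cells of all 6 genes, so that every line lacks PER1 and PER2 and there was no wild-type group. The proteins concerned are the repressors of the circadian clock: CRY and PER act on the activator CLOCK-BMAL1, and NR1D1 and NR1D2 (REV-ERBs) repress Arntl, which encodes BMAL1. By the study's methods, the Cry/Per/Nr1d_KO line is 1 clone obtained by CRISPR/Cas9 from Cry/Per_KO cells, so that a genotype cannot be told apart from the history of its line. The libraries of a line came from separate RNA preparations, and the p-values measure the spread between those only.

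PRC2 methylates histone H3 on lysine 27, with EZH1 or EZH2 as the catalytic subunit and EED and SUZ12 as the core that either of them needs. PRC1 ubiquitinates histone H2A through RING1 or RNF2 paired with a PCGF protein, and canonical PRC1 is brought to methylated H3K27 by a CBX protein, while its PHC subunits let complexes polymerise. Together they keep developmental regulators such as the Hox genes silent in cells that do not use them, trithorax-group methyltransferases act on H3K4 or H3K36 and keep such genes active, and DNA methylation is copied by DNMT1 with UHRF1, set by DNMT3A and DNMT3B, and oxidised by the TET enzymes.

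For 4 of the libraries the deposited counts carry a name that contradicts the genotype label, with Cry/Per_KO and Cry/Per/Nr1d_KO in each other's place. Groups follow the genotype label here, and these libraries are called Cry/Per_KO-labelled and Cry/Per/Nr1d_KO-labelled for that reason. Under the other reading, log2 fold changes between these lines change sign at the same size, and Per/Nr1d_KO is compared with the other line in each case. The mutated genes Cry1, Cry2, Per1, Per2, Nr1d1 and Nr1d2 were transcribed in every library, the lowest being Per2 at 1003.9 and 1088.9 normalized counts in Per/Nr1d_KO cells. Cry1 was at 5323 and 5478 normalized counts in Cry/Per_KO-labelled libraries, 1699 and 1724 in Cry/Per/Nr1d_KO-labelled ones and 1535 and 1592 in Per/Nr1d_KO. Nr1d1 was at 9337 and 9249, 3158 and 3146 and 5359 and 4838 in the same order. Arntl was at 2176 and 2208 in Cry/Per_KO-labelled libraries, 1192 and 1171 in Cry/Per/Nr1d_KO-labelled ones and 2493 and 2456 in Per/Nr1d_KO, and so was higher under the label that leaves its repressors NR1D1 and NR1D2 intact than under the one that lacks them. All 7 of these genes were higher in Cry/Per_KO-labelled than in Cry/Per/Nr1d_KO-labelled libraries at an adjusted p under 0.05 (edgeR), 4 of them past the fold limit of the calls given below. Under the deposited names, Arntl was instead lower in the line that keeps NR1D1 and NR1D2. These levels bear on which reading is right and were not used to choose between them. Statements below about a labelled line hold for its label and may belong to the other genotype. A normalized count is a read count scaled by edgeR's TMM factors to the mean effective library size of 65881749 counts. Library totals ran from 53764390 to 85927236 counts, of which the 41 genes took 0.394% to 0.493%, and the 2 libraries of a line correlated at 0.997 to 0.998 across genes on the log2 scale. Of 8 fibroblast markers, 7 were above 100 normalized counts in every library, but Thy1 reached no more than 6.22 in any library, and Col3a1 was at 289 and 296 in Cry/Per_KO-labelled libraries and 836 and 801 in Cry/Per/Nr1d_KO-labelled ones against 42810 and 43797 in Per/Nr1d_KO. Against Cry/Per/Nr1d_KO-labelled libraries, the log2 fold changes of the other 6 in Per/Nr1d_KO went both ways and were all called, higher for Col1a1 (1.51), Col1a2 (0.91) and Fn1 (0.91) and lower for Pdgfra (-1.61), Pdgfrb (-1.33) and Vim (-0.87). The summed epithelial, endothelial, muscle and pluripotency markers stayed between 0 and 132 normalized counts per library and type, and those of blood (mostly Cd68) between 110 and 280.1, highest in Per/Nr1d_KO. The neural markers summed to 1960 and 1777 in Cry/Per/Nr1d_KO-labelled libraries, 361.7 and 356 in Cry/Per_KO-labelled ones and 676 and 664 in Per/Nr1d_KO, nearly all from Tubb3 with Sox10 near 0. What part these differences in identity have in the results was not tested, and in bulk RNA fewer cells with a transcript and less of it per cell cannot be told apart.

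Every one of the 41 genes was expressed above the filter of a mean of 100 normalized counts over the 6 libraries, and no gene of the list was switched off in any line. A gene was called when its Benjamini-Hochberg adjusted p over the 11934 genes tested was under 0.05 in edgeR's quasi-likelihood test and its log2 fold change was above 0.807 in size, the study's limit on the fold. Between Cry/Per_KO-labelled libraries and Cry/Per/Nr1d_KO-labelled ones, 5 of the 41 were called (12.2%), against 16.8% of all genes tested. Ezh1 and Kmt2a were higher, where 7.86% of all genes were, and Pcgf6, Dnmt3b and Tet1 were lower, where 8.95% were. Between Per/Nr1d_KO and Cry/Per/Nr1d_KO-labelled libraries, 5 of the 41 were called (12.2%, against 20.7% of all genes). Jarid2 and Tet2 were higher (11.3% of all genes were), and Phf19, Cbx6 and Cbx8 were lower (9.35% of all genes were). Between Per/Nr1d_KO and Cry/Per_KO-labelled libraries, 11 of the 41 were called (26.8%, against 29.0% of all genes), 5 of them higher (15.2% of all genes were) and 6 lower (13.8% of all genes were). The shares called were thus below or near the background in all 3 comparisons. Without the limit on the fold, 25, 24 and 38 of the 41 genes passed an adjusted p of 0.05, against 76.4%, 75.8% and 82.1% of all genes tested. The median log2 fold change of the 41 genes was 0.018, -0.054 and -0.077 in the 3 comparisons, beside -0.0033, 0.011 and 0.035 over all genes tested. The 3 comparisons share libraries in pairs and are not independent of each other.

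**Figure D1:**
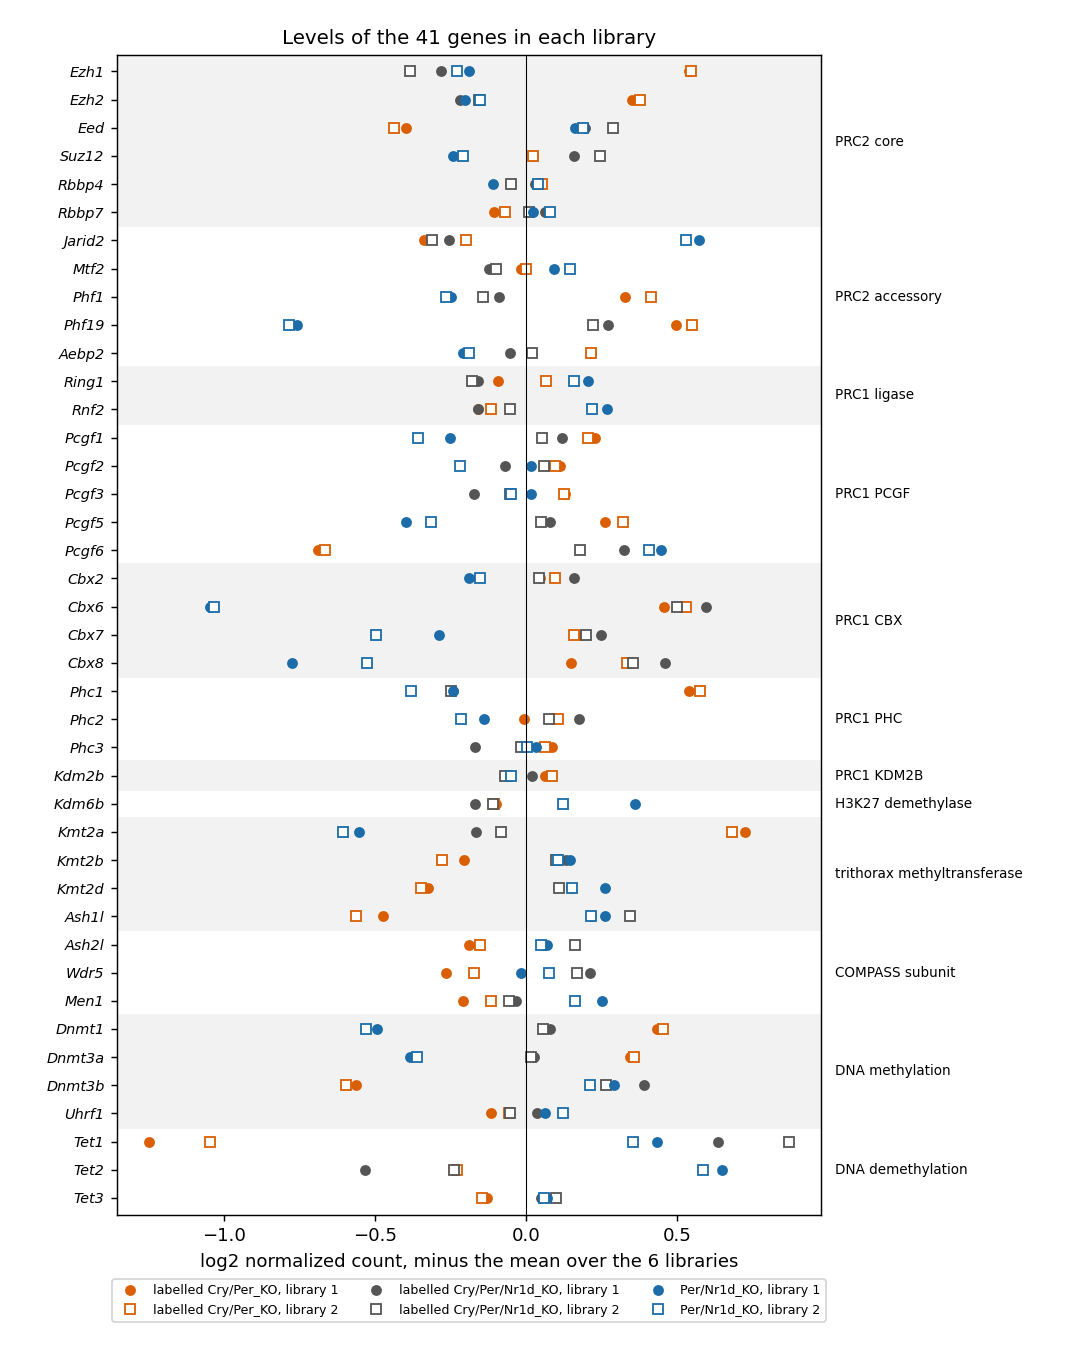
Level of each of the 41 genes in each library, as the log2 normalized count minus the mean of that gene over the 6 libraries; colours give the line, filled circles library 1 and open squares library 2 of a line. The 2 libraries of a line lie close together, Cbx6, Cbx8 and Phf19 lie low in Per/Nr1d_KO, and Tet1, Dnmt3b and Pcgf6 lie low in Cry/Per_KO-labelled libraries.

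Whole chromosomes also differed between the lines, and this runs through the list. The median log2 fold change of the genes tested on chromosome 9, which carries Dnmt1 and Kmt2a, was 0.38 between Cry/Per_KO-labelled and Cry/Per/Nr1d_KO-labelled libraries, -0.46 between Per/Nr1d_KO and Cry/Per/Nr1d_KO-labelled ones, and -0.84 between Per/Nr1d_KO and Cry/Per_KO-labelled ones. On chromosome 3, which carries Ash1l, Tet2 and Phc3, these medians were -0.65, 0.24 and 0.88. On chromosome 6, with Ezh2, Aebp2, Phc1, Pcgf1 and Tet3, they were 0.34, -0.082 and -0.41. Copy number was not measured, and the chromosome median is given below beside the named chromatin and proliferation genes whose call is lost when it is subtracted. With it subtracted from each gene, 4, 3 and 8 of the 41 genes were called in the 3 comparisons, against 13.7%, 19.5% and 23.2% of all genes tested.

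In PRC1, Cbx6 and Cbx8, which encode chromodomain proteins that bind methylated H3K27, were low in Per/Nr1d_KO cells. They were the 2 of the 4 CBX genes of the list that were called lower in each comparison with Per/Nr1d_KO, where 9.35% (against Cry/Per/Nr1d_KO-labelled libraries) and 13.8% (against Cry/Per_KO-labelled ones) of all genes tested were called lower, and between the other lines none was called by edgeR or DESeq2 or had an unadjusted p under 0.05 (0 of 4). Upstream sequences are shown for Cbx6, Cbx8 and Phf19, the genes called lower in Per/Nr1d_KO than in both other lines, and for Cbx7, the neighbour of Cbx6. The E-box CACGTG, the site of CLOCK-BMAL1, was looked for in them as the sequence named with the clock. Each is the 250 bases before the RefSeq transcript start in the assembly GRCm38.p6 (mm10), read 5′ to 3′ on the strand of the gene, which is the minus strand for all of them. Capitals mark an E-box (CACGTG) or an E2F-type motif (TTTGGCGC, TTTCCCGC, TTTCGCGC or TTTGCCGC), on either strand.
Cbx6, chr15:79834334-79834583: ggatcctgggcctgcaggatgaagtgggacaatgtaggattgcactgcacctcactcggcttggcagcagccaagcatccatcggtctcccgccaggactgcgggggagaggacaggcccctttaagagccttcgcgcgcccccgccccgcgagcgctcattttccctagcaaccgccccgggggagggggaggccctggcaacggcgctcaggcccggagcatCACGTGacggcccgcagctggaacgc
Cbx8, chr11:119040914-119041163: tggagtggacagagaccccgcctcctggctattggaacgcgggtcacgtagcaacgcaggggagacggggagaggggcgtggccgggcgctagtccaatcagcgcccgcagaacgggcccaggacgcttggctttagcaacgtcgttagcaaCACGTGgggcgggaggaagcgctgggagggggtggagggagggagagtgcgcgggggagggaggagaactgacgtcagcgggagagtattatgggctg
Cbx7, chr15:79932647-79932896: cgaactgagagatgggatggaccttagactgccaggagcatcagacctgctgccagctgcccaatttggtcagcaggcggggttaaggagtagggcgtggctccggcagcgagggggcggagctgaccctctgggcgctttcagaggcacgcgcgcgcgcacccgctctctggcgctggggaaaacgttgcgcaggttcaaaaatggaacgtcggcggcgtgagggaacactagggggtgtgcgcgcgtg
Phf19, chr2:34913977-34914226: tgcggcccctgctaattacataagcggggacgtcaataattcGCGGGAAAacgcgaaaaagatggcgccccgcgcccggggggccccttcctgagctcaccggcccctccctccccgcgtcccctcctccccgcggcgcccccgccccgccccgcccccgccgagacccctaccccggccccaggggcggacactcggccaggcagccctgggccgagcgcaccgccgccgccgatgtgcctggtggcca

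The E-box stood 26 bases before the start of Cbx6 and 98 bases before that of Cbx8, and the windows of Cbx7 and Phf19 held none. The windows of Cbx7 and Phf19 lie inside the annotated genes, which reach upstream to chr15:79971143 and chr2:34914353. Any start further upstream in them was not looked at. The table of RefSeq promoters held 53 start sites of 35 of the 41 genes (all but Ash1l, Ash2l, Cbx2, Kdm6b, Kmt2b and Pcgf1), and 7 of these 53 windows (13.2%) had an E-box, against 6.02% of 32851 windows of the same length over all genes. The others were those of Dnmt3a, Pcgf2, Phc2, Phc3 and Rbbp4, none of which was called in any comparison. E2F-type letters were in 4 of the 53 windows, those of Phf19, Dnmt1, Suz12 and Uhrf1, against 1.86% of all windows. Both of these motifs hold a CpG, of which the windows of the list had more (a median of 20 against 6), and the shares were not matched for this, so that nothing is read from the differences. The letters AGGTCA, the core that NR1D and ROR receptors bind, were in 7 of 53 windows (13.2%) against 14.0% of all windows. A match is a run of letters and not a measured site.

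Cbx6 (chr15:79823898-79834333, minus strand) had the largest fall of the list in Per/Nr1d_KO cells. It was at 5123 and 5165 normalized counts there, against 14531 and 15257 in Cry/Per_KO-labelled libraries and 15981 and 14948 in Cry/Per/Nr1d_KO-labelled ones. The Per/Nr1d_KO libraries lay far below all others, and the other lines overlapped. The log2 fold change of Per/Nr1d_KO was -1.59 ± 0.048 (standard error) against Cry/Per/Nr1d_KO-labelled libraries, a 3.01-fold lower level (adjusted p = 1.1e-13), and -1.53 ± 0.048 against Cry/Per_KO-labelled ones (adjusted p = 1.3e-13). The median of chromosome 15 was 0.034 and 0.35 in these comparisons. Between the Cry/Per_KO-labelled and Cry/Per/Nr1d_KO-labelled lines Cbx6 differed by -0.054 ± 0.046 (adjusted p = 0.29). The exons of Cbx6 share 5.31% of their bases with Npcd on the same strand, and reads there cannot be assigned to either gene from the counts.

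Cbx8 (chr11:119036303-119040913) was at 327 and 388 normalized counts in Per/Nr1d_KO, 769 and 714 in Cry/Per/Nr1d_KO-labelled libraries and 619.9 and 705 in Cry/Per_KO-labelled ones. In Per/Nr1d_KO cells its log2 fold change amounted to -1.04 ± 0.10 against Cry/Per/Nr1d_KO-labelled libraries (adjusted p = 1.9e-07) and -0.88 ± 0.10 against Cry/Per_KO-labelled ones (adjusted p = 1.1e-06). The Per/Nr1d_KO libraries lay below all others for this gene too, but the second comparison was no longer called without Cry/Per_KO-labelled library 2 (log2 fold change -0.78) or without library 1 of Per/Nr1d_KO (-0.77). Cbx7, which lies 81.5 kb from Cbx6 on chromosome 15, was at 535 and 462 in Per/Nr1d_KO against 775 and 749 in Cry/Per/Nr1d_KO-labelled libraries and 740.1 and 729.6 in Cry/Per_KO-labelled ones. Its log2 fold changes of -0.62 ± 0.087 (adjusted p = 1e-05) and -0.57 ± 0.088 (adjusted p = 2.2e-05) were within the fold limit, but with the chromosome 15 median subtracted the second was -0.92 and past it. Cbx2, which lies 5.0 kb from Cbx8 on chromosome 11, differed least in the family, with 1626 and 1667 in Per/Nr1d_KO, 2069 and 1909 in Cry/Per/Nr1d_KO-labelled libraries and 1912 and 1981 in Cry/Per_KO-labelled ones. The neighbours in each pair thus differed in size, with a log2 fold change of -1.59 for Cbx6 and -0.62 for Cbx7, and of -1.04 for Cbx8 and -0.27 for Cbx2, against Cry/Per/Nr1d_KO-labelled libraries.

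Levels of different genes were set side by side per kb of exon. The length is the union of all annotated exons, used in these cells or not, so that ranks and shares between genes depend on the annotation. On that scale Cbx6 was the most abundant of the 4 CBX genes of the list in every line. The summed level of Cbx2, Cbx6, Cbx7 and Cbx8 was 1036 and 1055 normalized counts per kb in Per/Nr1d_KO, against 2102 and 2208 in Cry/Per_KO-labelled libraries and 2321 and 2167 in Cry/Per/Nr1d_KO-labelled ones. Cbx6 made up 46.4% of this sum in Per/Nr1d_KO and 65.2% and 65.0% in the Cry/Per_KO-labelled and Cry/Per/Nr1d_KO-labelled lines, and the share of Cbx2, whose own level was not called, was 37.0% there against 21.2% and 20.8%.

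**Figure D2:**
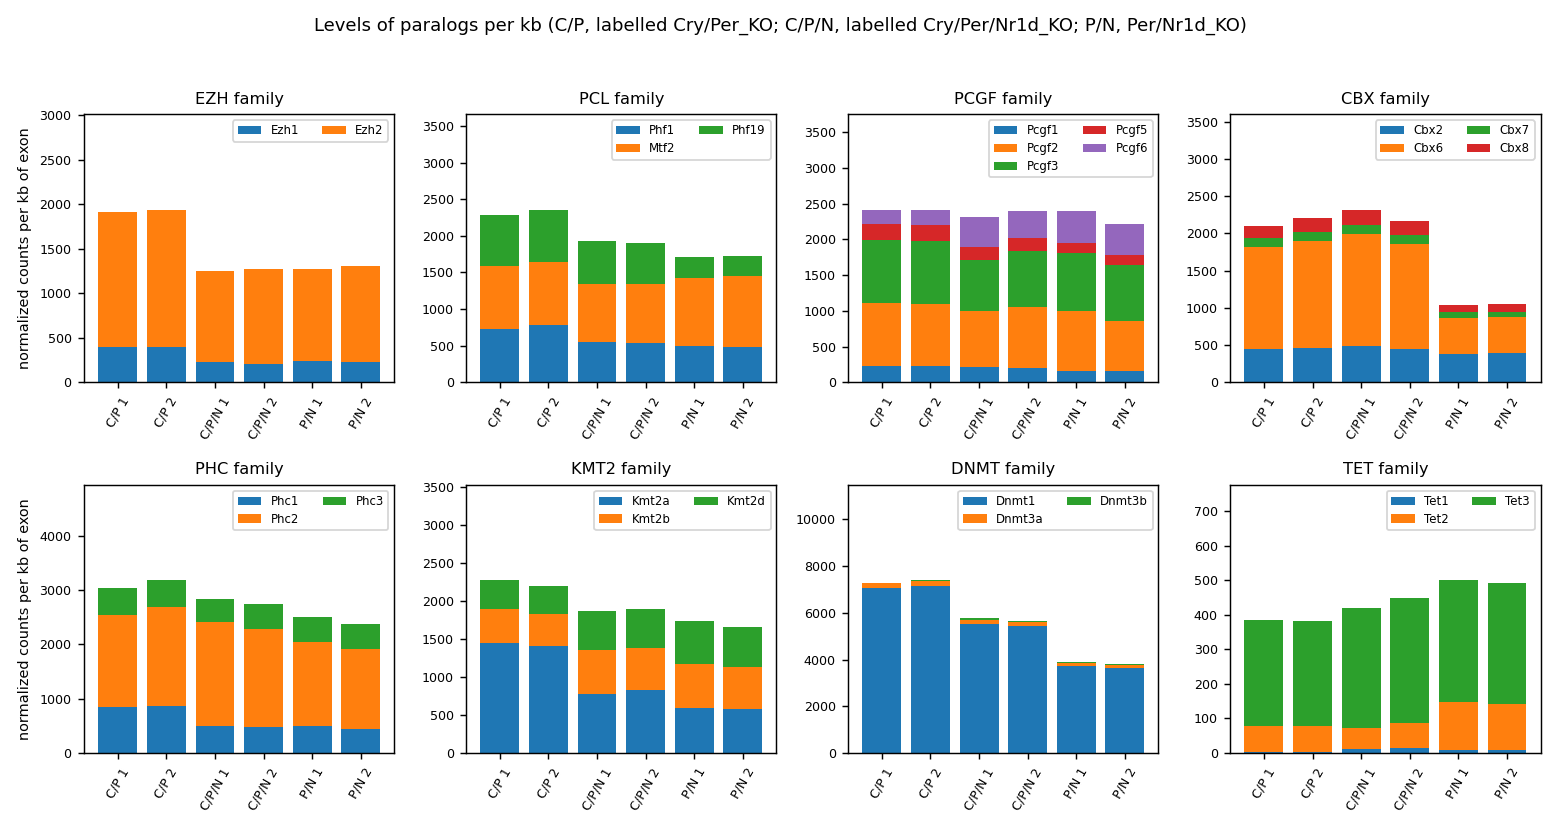
Normalized counts per kb of exon of paralogs in 8 families, stacked by gene, for each of the 6 libraries (C/P, labelled Cry/Per_KO; C/P/N, labelled Cry/Per/Nr1d_KO; P/N, Per/Nr1d_KO). The CBX sum is 1036 and 1055 in Per/Nr1d_KO and 2102 to 2321 in the other libraries, the sum of the 5 PCGF genes of the list, without Bmi1, is 2224 to 2419, and Dnmt1 makes up nearly all of the DNMT sum.

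Of the other PRC1 genes of the list, Pcgf6 and Phc1 were called. PCGF6 defines a variant PRC1 without the Polycomb CBX subunits and is best known for silencing germline genes in embryonic stem cells. Pcgf6 (chr19:47033617-47050939) was at 1044 and 1061 normalized counts in Cry/Per_KO-labelled libraries, 2107 and 1906 in Cry/Per/Nr1d_KO-labelled ones and 2297 and 2232 in Per/Nr1d_KO. Cry/Per_KO-labelled libraries were the low ones, with a log2 fold change of -0.93 ± 0.067 against Cry/Per/Nr1d_KO-labelled ones (adjusted p = 6.7e-09), and Per/Nr1d_KO was 1.10 ± 0.066 above them (adjusted p = 3.8e-10). The summed level per kb of the 5 PCGF genes of the list (Pcgf1, Pcgf2, Pcgf3, Pcgf5 and Pcgf6) was 2224 to 2419 over the 6 libraries, and Pcgf6 took 8.66% of it in the Cry/Per_KO-labelled line, 17.0% in the Cry/Per/Nr1d_KO-labelled one and 19.5% in Per/Nr1d_KO. Bmi1 (PCGF4), a PCGF protein of canonical PRC1 that is outside the list and was named after its values were seen, is not in this sum. It was at 6679 and 7311 normalized counts in Cry/Per/Nr1d_KO-labelled libraries, 4981 and 5088 in Cry/Per_KO-labelled ones and 4969.9 and 4816 in Per/Nr1d_KO, with log2 fold changes of -0.47 ± 0.051 and -0.52 ± 0.051 against the first of these (adjusted p = 6.9e-07 and 2.3e-07), neither called.

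Phc1 (chr6:122317731-122340227), which encodes a SAM-domain subunit of canonical PRC1, was at 4443 and 4555 normalized counts in Cry/Per_KO-labelled libraries, 2585 and 2572 in Cry/Per/Nr1d_KO-labelled ones and 2586 and 2347 in Per/Nr1d_KO. Its level in Cry/Per_KO-labelled libraries exceeded that in all others. The log2 fold change was -0.87 ± 0.055 between Per/Nr1d_KO and these libraries (adjusted p = 7.8e-10), where the median of chromosome 6 was -0.41, and this call was lost without library 2 of Per/Nr1d_KO (-0.80) and with the chromosome median subtracted (-0.46). Against Cry/Per/Nr1d_KO-labelled libraries it was 0.80 ± 0.055 (adjusted p = 4.3e-09, chromosome median 0.34), just within the fold limit, and it passed the limit without Cry/Per_KO-labelled library 1 (0.82).

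Of the catalytic pair, Rnf2 (RING1B) was the major form, with 86.9% to 88.3% of the summed per-kb level of Rnf2 and Ring1 in the line means. Rnf2 was at 6462 and 6244 normalized counts in Per/Nr1d_KO, against 4799 and 4944 in Cry/Per_KO-labelled libraries and 4799 and 5164 in Cry/Per/Nr1d_KO-labelled ones, a log2 fold change of 0.35 ± 0.050 against the last (adjusted p = 1.1e-05) that was within the limit and stood beside a chromosome 1 median of 0.28. Ring1 was at 513 to 669 normalized counts over the 6 libraries. Pcgf5, a subunit of variant PRC1, was at 1705 and 1807 in Per/Nr1d_KO, 2372 and 2322 in Cry/Per/Nr1d_KO-labelled libraries and 2689 and 2801 in Cry/Per_KO-labelled ones, with -0.64 ± 0.058 between the first and the last (adjusted p = 5e-08), or -0.86 with the median of chromosome 19 subtracted. Pcgf1, Pcgf2 (MEL18), Pcgf3, Phc2, Phc3 and Kdm2b, whose product takes a variant PRC1 to CpG islands, were within the fold limit in every comparison, and their log2 fold changes ran from -0.53 (Pcgf1 between Per/Nr1d_KO and Cry/Per_KO-labelled libraries) to 0.24 (Pcgf3 between Cry/Per_KO-labelled and Cry/Per/Nr1d_KO-labelled ones). Phc3 was within 0.17 of 0 in all 3 comparisons although the median of its chromosome 3 was -0.65 between Cry/Per_KO-labelled and Cry/Per/Nr1d_KO-labelled libraries, so that it was called (0.812) only with that median subtracted. The exons of Pcgf1 share 15.3% of their stretches of 50 bases with the gene Gm8930, which makes its counts uncertain.

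In PRC2, Cry/Per_KO-labelled libraries stood apart in the catalytic subunits and in Eed. Of the 6 core genes, only Ezh1 was called, and the comparisons of Per/Nr1d_KO gave 0 calls by edgeR and by DESeq2, with 1 gene (against Cry/Per/Nr1d_KO-labelled libraries) and 5 genes (against Cry/Per_KO-labelled ones) at an unadjusted p under 0.05. Of all genes tested, 16.8%, 20.7% and 29.0% were called in the 3 comparisons, and with 6 genes nothing is read from the difference. Ezh1 (chr11:101191115-101226463) was at 2941 and 2956 normalized counts in Cry/Per_KO-labelled libraries, 1664 and 1552 in Cry/Per/Nr1d_KO-labelled ones and 1776 and 1727 in Per/Nr1d_KO. The log2 fold change between the first pair was 0.87 ± 0.058 (adjusted p = 3.2e-09), and that between Per/Nr1d_KO and Cry/Per_KO-labelled libraries was -0.75 ± 0.058 (adjusted p = 8.3e-09), within the fold limit. Ezh2 was at 10123 and 10295 in Cry/Per_KO-labelled libraries, 6818 and 7123 in Cry/Per/Nr1d_KO-labelled ones and 6895 and 7129 in Per/Nr1d_KO. It was not called, with 0.55 ± 0.044 between the Cry/Per_KO-labelled and Cry/Per/Nr1d_KO-labelled lines (adjusted p = 2.7e-08, chromosome 6 median 0.34), and the difference between the other lines was 0.0095 ± 0.045 (adjusted p = 0.85). Per kb, Ezh2 made up 79.4% to 82.8% of the EZH sum in the line means, and that sum was 1911 and 1939 in Cry/Per_KO-labelled libraries against 1245 to 1300 in the other 4 libraries.

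Eed, the subunit that binds trimethylated H3K27 and stimulates the enzyme, went the other way. It was at 2749 and 2673 normalized counts in Cry/Per_KO-labelled libraries, 4145 and 4419 in Cry/Per/Nr1d_KO-labelled ones and 4049.7 and 4129.8 in Per/Nr1d_KO. Cry/Per_KO-labelled libraries lay below all others, with -0.66 ± 0.051 against Cry/Per/Nr1d_KO-labelled ones (adjusted p = 1.8e-08, chromosome 7 median -0.27), which is within the fold limit. Suz12, the scaffold of the core, was at 11259 and 11518 in Per/Nr1d_KO, 13539 and 13522 in Cry/Per_KO-labelled libraries and 14875 and 15802 in Cry/Per/Nr1d_KO-labelled ones. Its largest difference was -0.43 ± 0.044 between Per/Nr1d_KO and the latter (adjusted p = 3.3e-07). The histone-binding subunits Rbbp4 and Rbbp7, which other complexes share, varied little, at 22180.0 to 24851 and 18974 to 21535 normalized counts over the 6 libraries. Of the exon bases of Rbbp4, 18.0% lie opposite Gm26722, and whether the counting used the strand is not given in the sources used here.

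Among the accessory subunits of PRC2, Phf19 and Jarid2 moved in opposite directions in Per/Nr1d_KO cells. PHF19, PHF1 and MTF2 are the Polycomb-like proteins of PRC2.1 that bind DNA or H3K36 methylation, and JARID2 and AEBP2 mark PRC2.2. Phf19 (chr2:34893752-34914353) was at 1450 and 1425 normalized counts in Per/Nr1d_KO, 2959 and 2859.7 in Cry/Per/Nr1d_KO-labelled libraries and 3460.3 and 3591 in Cry/Per_KO-labelled ones. It was 2.03-fold lower than in the former (-1.02 ± 0.055, adjusted p = 1.6e-10) and 2.45-fold lower than in the latter (-1.30 ± 0.055, adjusted p = 5.7e-12). Its share of the Polycomb-like genes per kb was 16.6% in Per/Nr1d_KO and 30.2% and 30.1% in the other lines.

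Jarid2 (chr13:44730774-44921643) was at 1756 and 1704 normalized counts in Per/Nr1d_KO, 990.0 and 951 in Cry/Per/Nr1d_KO-labelled libraries and 935 and 1029 in Cry/Per_KO-labelled ones. All 4 other libraries lay below both of Per/Nr1d_KO, with log2 fold changes of 0.83 ± 0.069 (adjusted p = 2.9e-08) and 0.81 ± 0.069 (adjusted p = 2.7e-08). Both lie at the fold limit. The second fell within it under DESeq2 (0.805), under median-of-ratios size factors (0.804), without Cry/Per_KO-labelled library 1 (0.75) and without library 1 of Per/Nr1d_KO (0.79). The first fell within it without Cry/Per/Nr1d_KO-labelled library 2 (0.804) and with the median of chromosome 13 (0.22) subtracted (0.61). Mtf2, the most abundant Polycomb-like gene per kb, was at 4541 to 5476 normalized counts over the 6 libraries. Phf1 was at 2559 and 2714 in Cry/Per_KO-labelled libraries, 1916 and 1848 in Cry/Per/Nr1d_KO-labelled ones and 1716 and 1698 in Per/Nr1d_KO (0.49 ± 0.058 between the first pair, adjusted p = 2e-06), and 39.3% of its exon bases lie opposite Cuta. Aebp2 had log2 fold changes of 0.23, -0.18 and -0.41 in the 3 comparisons, beside chromosome 6 medians of 0.34, -0.082 and -0.41.

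**Figure D3:**
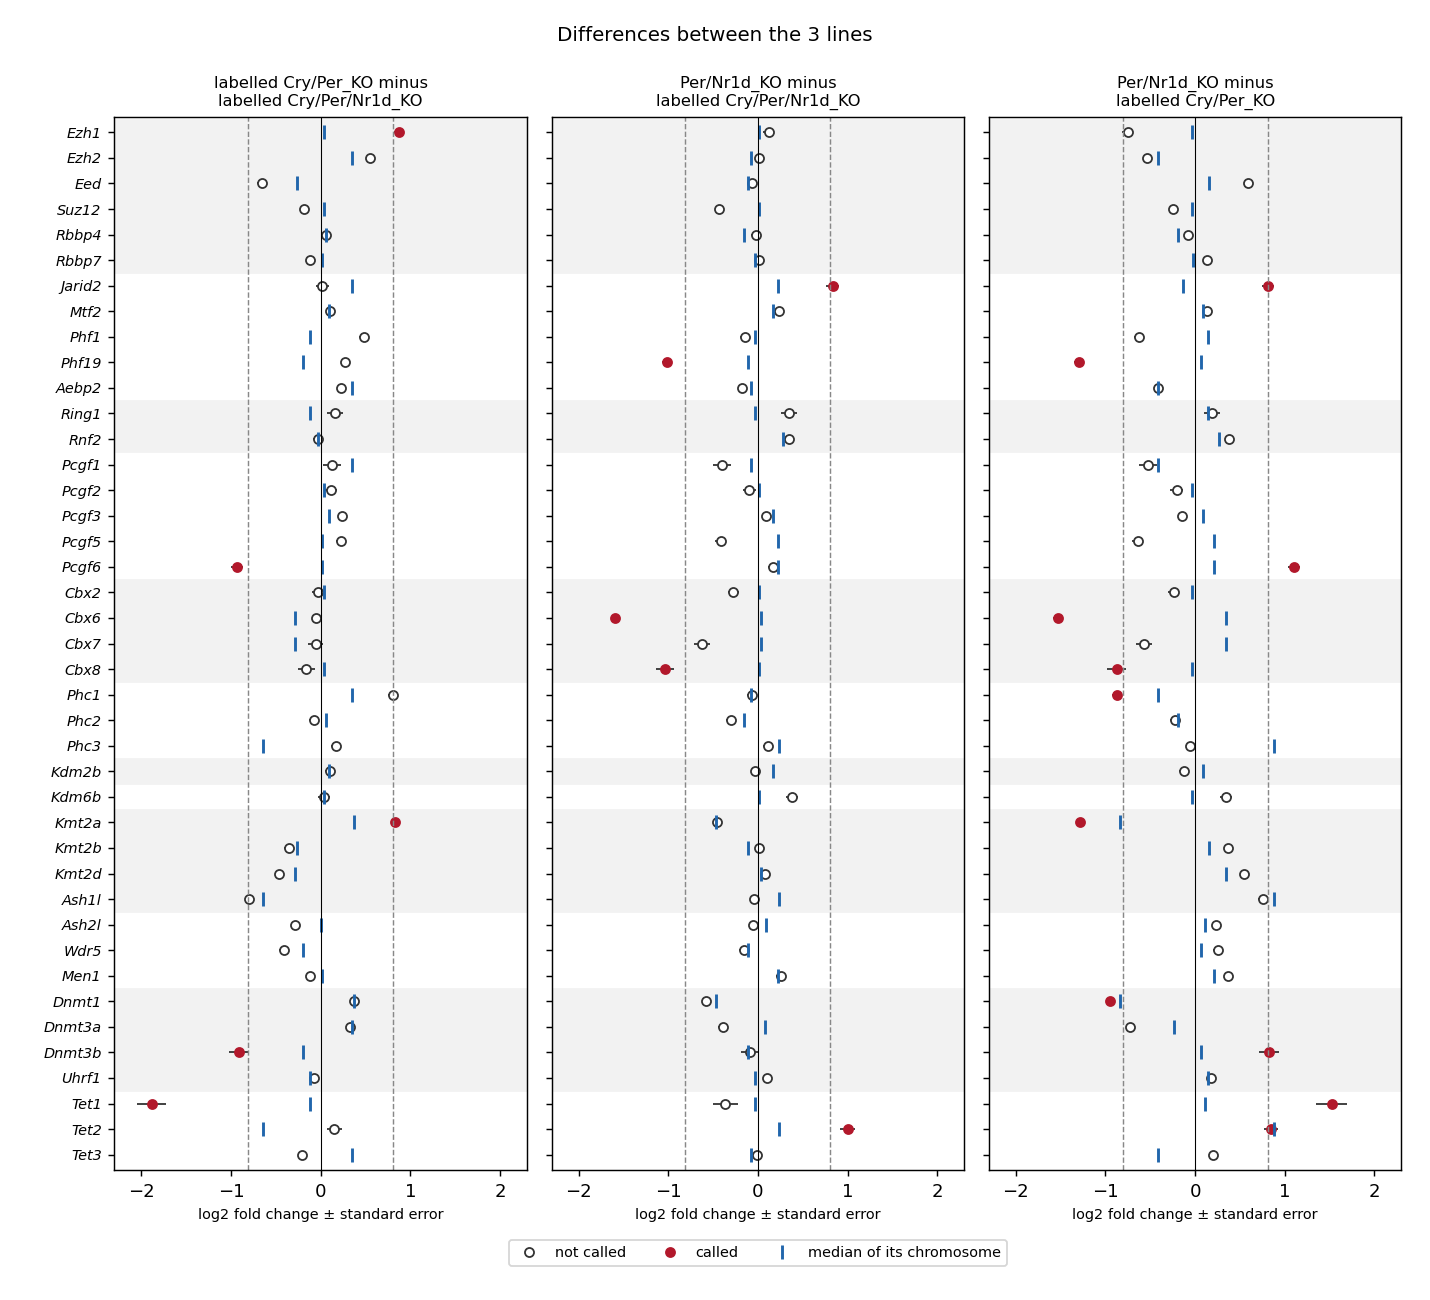
Log2 fold change with its standard error for the 41 genes in the 3 comparisons (edgeR); filled red points were called, dashed lines mark the fold limit of 0.807 on the log2 scale, and blue ticks give the median of all genes tested on the same chromosome. Cbx6, Phf19 and Tet1 lie far from their chromosome's tick, and Dnmt1 lies close to it in each panel.

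Kmt2a and the other trithorax-group methyltransferases differed in opposite directions in Cry/Per_KO-labelled libraries. Kmt2a (MLL1), an H3K4 methyltransferase that keeps Hox genes active, was at 24126 and 23398 normalized counts in Cry/Per_KO-labelled libraries, 13003 and 13774 in Cry/Per/Nr1d_KO-labelled ones and 9947 and 9593 in Per/Nr1d_KO. The 3 lines did not overlap. The log2 fold change was 0.83 ± 0.045 between the first pair (adjusted p = 3.1e-10) and -1.28 ± 0.045 between Per/Nr1d_KO and Cry/Per_KO-labelled libraries (adjusted p = 6e-13). The medians of chromosome 9, on which it lies (chr9:44803355-44881352), were 0.38 and -0.84 in these comparisons, and with them subtracted the values were 0.45 and -0.45 and Kmt2a was called in neither. The call against Cry/Per/Nr1d_KO-labelled libraries was also lost without Cry/Per/Nr1d_KO-labelled library 1 (0.79) or without Cry/Per_KO-labelled library 1 (0.806).

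Kmt2b (MLL2), Kmt2d (MLL4) and Ash1l were lowest in Cry/Per_KO-labelled libraries, although none was called. Kmt2b was at 4308 and 4100.4 normalized counts there, 5443 and 5327 in Cry/Per/Nr1d_KO-labelled ones and 5496 and 5353 in Per/Nr1d_KO. Kmt2d, which marks enhancers, was at 7478 and 7343 in Cry/Per_KO-labelled libraries, at 10361 and 10085 in Cry/Per/Nr1d_KO-labelled ones and at 11220 and 10399 in Per/Nr1d_KO. Cry/Per_KO-labelled libraries lay below all others for both genes, with log2 fold changes of -0.36 ± 0.047 for Kmt2b and -0.46 ± 0.047 for Kmt2d against Cry/Per/Nr1d_KO-labelled ones (adjusted p = 6.3e-06 and 3.3e-07), beside medians of -0.27 for chromosome 7 and -0.29 for chromosome 15. Ash1l, an H3K36 methyltransferase of the trithorax group that opposes PRC2, was at 11144 and 10455 there, at 17944 and 19603 in Cry/Per/Nr1d_KO-labelled ones and at 18533 and 17955 in Per/Nr1d_KO. Its log2 fold change of -0.80 ± 0.051 between the first pair (adjusted p = 1.7e-09) stood beside a median of -0.65 for chromosome 3 and crossed the fold limit without Cry/Per/Nr1d_KO-labelled library 1 (-0.86) or Cry/Per_KO-labelled library 1 (-0.84). Per kb, Kmt2a took 63.8% of the summed Kmt2a, Kmt2b and Kmt2d level in the Cry/Per_KO-labelled line, 42.8% in the Cry/Per/Nr1d_KO-labelled one and 34.6% in Per/Nr1d_KO. Of the shared subunits of these complexes, Wdr5 was at 5735 and 6116 in Cry/Per_KO-labelled libraries against 7985 and 7764 in Cry/Per/Nr1d_KO-labelled ones (-0.41 ± 0.050, adjusted p = 2.4e-06, chromosome 2 median -0.19), and Ash2l and Men1 (menin) were within 0.37 of 0 in every comparison. Kdm6b, which removes methyl groups from H3K27, was at 4795 and 4061 in Per/Nr1d_KO against 3323 and 3465 in Cry/Per/Nr1d_KO-labelled libraries and 3485 and 3467 in Cry/Per_KO-labelled ones (0.38 ± 0.066 and 0.35 ± 0.066, adjusted p = 8.5e-05 and 0.00018).

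Of the DNA methyltransferases, Dnmt1 and Dnmt3a were highest in Cry/Per_KO-labelled libraries and lowest in Per/Nr1d_KO, and Dnmt3b was low in Cry/Per_KO-labelled libraries. Dnmt1, the maintenance enzyme, was at 51988 and 52740 normalized counts in Cry/Per_KO-labelled libraries, 40737 and 40034 in Cry/Per/Nr1d_KO-labelled ones and 27368 and 26687 in Per/Nr1d_KO, with no overlap. Its log2 fold change was -0.95 ± 0.042 between Per/Nr1d_KO and Cry/Per_KO-labelled libraries (adjusted p = 7.6e-12) and within the fold limit in the other comparisons (0.37 ± 0.041, adjusted p = 8.5e-07, and -0.58 ± 0.041, adjusted p = 4.7e-09). Dnmt1 lies on chromosome 9 (chr9:20907206-20959888), and the chromosome medians of -0.84, 0.38 and -0.46 in the same order left -0.12 of the first when subtracted. Dnmt3a, one of the de novo enzymes, was at 3522 and 3552 in Cry/Per_KO-labelled libraries, at 2821 and 2806 in Cry/Per/Nr1d_KO-labelled ones and at 2126 and 2156 in Per/Nr1d_KO. Its largest difference was -0.72 ± 0.051 between the last and the first (adjusted p = 2.6e-09, chromosome 12 median -0.23). Between the first pair it was 0.33 ± 0.050 beside a chromosome 12 median of 0.35, which left -0.017 when subtracted. Uhrf1, which brings DNMT1 to newly replicated DNA, was at 13336 to 15729 normalized counts over the 6 libraries and did not follow Dnmt1, and 15.4% of its stretches of 50 bases are shared with other genes, most with Gm5648.

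Dnmt3b (chr2:153649411-153687730), the other de novo enzyme, was at 188 and 184 normalized counts in Cry/Per_KO-labelled libraries, 364 and 333 in Cry/Per/Nr1d_KO-labelled ones and 339.7 and 321 in Per/Nr1d_KO. Cry/Per_KO-labelled libraries were the low ones, with -0.91 ± 0.11 against Cry/Per/Nr1d_KO-labelled ones (adjusted p = 2.5e-06), and Per/Nr1d_KO was 0.83 ± 0.11 above them (adjusted p = 5.6e-06). The second fell within the fold limit without library 1 of Per/Nr1d_KO (0.79). Both did with the medians of chromosome 2 (-0.19 and 0.069) subtracted (-0.72 and 0.76). The transcript is minor, at 36.4 normalized counts per kb in the Cry/Per_KO-labelled line against 7098 for Dnmt1, and 9.81% of its stretches of 50 bases are shared with Dnmt3c. Dnmt1 made up 96.6%, 95.8% and 94.98% of the summed DNMT level per kb in the Cry/Per_KO-labelled, Cry/Per/Nr1d_KO-labelled and Per/Nr1d_KO lines.

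The TET dioxygenases gave the largest fold of the list. Tet1 (chr10:62804570-62887469) was at 47.9 and 55.0 normalized counts in Cry/Per_KO-labelled libraries, 177 and 208 in Cry/Per/Nr1d_KO-labelled ones and 153 and 145 in Per/Nr1d_KO. It was the lowest gene of the list per kb in every line, and the raw counts behind these values were 43 and 56 in Cry/Per_KO-labelled libraries, 199 and 187 in Cry/Per/Nr1d_KO-labelled ones and 121 and 184 in Per/Nr1d_KO. Cry/Per_KO-labelled libraries lay below all others, with -1.89 ± 0.17 against Cry/Per/Nr1d_KO-labelled ones (3.70-fold), and Per/Nr1d_KO was 2.88-fold above them (1.52 ± 0.17). Tet1 had the fewest counts of the list and the largest standard error. Its mean passed the filter only through the lines where it was higher, so that no adjusted p is given for these differences. Tet1 is among the genes called in both comparisons of Cry/Per_KO-labelled libraries. Both differences were also called with no expression filter (-1.89 and 1.52). Tet2 (chr3:133463677-133545136) was at 2332 and 2229 in Per/Nr1d_KO, 1028 and 1259 in Cry/Per/Nr1d_KO-labelled libraries and 1261 and 1269 in Cry/Per_KO-labelled ones. Per/Nr1d_KO was above both, by 0.9992 ± 0.080 (adjusted p = 1.9e-08) and 0.85 ± 0.080 (adjusted p = 8.9e-08), beside chromosome 3 medians of 0.24 and 0.88, and with these subtracted it was called in neither (0.76 and -0.030). Tet3, the main TET transcript with 70.8% to 81.5% of the summed level per kb, was at 5064 to 5999 normalized counts over the 6 libraries.

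Upstream windows of the 3 genes that were called lower in Cry/Per_KO-labelled libraries are shown because they moved together there, in the same assembly and orientation as above.
Pcgf6, chr19:47050907-47051156, minus strand: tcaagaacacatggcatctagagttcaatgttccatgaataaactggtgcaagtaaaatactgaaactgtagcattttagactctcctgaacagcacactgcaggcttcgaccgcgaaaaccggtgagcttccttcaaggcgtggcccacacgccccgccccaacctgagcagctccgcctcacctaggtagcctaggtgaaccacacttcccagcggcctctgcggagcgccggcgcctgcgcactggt
Dnmt3b, chr2:153649199-153649448, plus strand: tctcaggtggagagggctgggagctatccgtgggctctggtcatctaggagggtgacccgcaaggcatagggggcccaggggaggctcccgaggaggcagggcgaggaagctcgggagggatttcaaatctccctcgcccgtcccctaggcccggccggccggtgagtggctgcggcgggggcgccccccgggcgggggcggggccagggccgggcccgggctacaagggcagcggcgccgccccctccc
Tet1, chr10:62887325-62887574, minus strand: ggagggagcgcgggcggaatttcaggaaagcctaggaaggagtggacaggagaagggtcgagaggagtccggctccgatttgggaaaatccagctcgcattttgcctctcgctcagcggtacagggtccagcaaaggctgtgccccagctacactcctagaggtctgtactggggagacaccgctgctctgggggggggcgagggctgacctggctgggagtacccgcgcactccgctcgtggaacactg

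None of them held an E-box or an E2F-type motif on either strand, so that no capitals appear, while the window of Tet1 holds AGGTCA once, on its other strand. The 53 windows of the list had a median of 20 CpG dinucleotides, against 6 over all 32851 windows, and the windows of Pcgf6, Dnmt3b and Tet1 had 14, 21 and 15.

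A further list of 77 genes covered other Polycomb subunits, the PR-DUB, other COMPASS and BAF subunits, DNA methylation readers, and H3K9, H3K4 and H3K36 enzymes. Of the 76 tested, 7 (9.21%), 4 (5.26%) and 11 (14.5%) were called in the comparisons of Cry/Per_KO-labelled libraries with Cry/Per/Nr1d_KO-labelled ones, of Per/Nr1d_KO with the latter, and of Per/Nr1d_KO with the former, each share below that of all genes. Auts2, a partner of PCGF3 and PCGF5 in variant PRC1, had no count in either Cry/Per_KO-labelled library (0 in each), which allows up to 3 counts in each, against 180.2 and 211 normalized counts in Cry/Per/Nr1d_KO-labelled ones and 184 and 134 in Per/Nr1d_KO. No other gene of the 2 chromatin lists was without a count in both libraries of a line. None of the 7 PR-DUB genes or the 13 other COMPASS genes was called in any comparison by edgeR or DESeq2, although an unadjusted p under 0.05 was reached by 3, 5 and 7 of the former and by 9, 9 and 13 of the latter. In lists of this size, beside 16.8%, 20.7% and 29.0% of all genes called, nothing is read from these counts. Scml2, an X-linked Polycomb gene, was higher in Cry/Per_KO-labelled libraries (844 and 794) than in Cry/Per/Nr1d_KO-labelled ones (347 and 404) and Per/Nr1d_KO (266 and 262). Its log2 fold changes were 1.13 ± 0.094 (adjusted p = 3.8e-08) and -1.63 ± 0.098 (adjusted p = 4e-10).

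The libraries labelled Cry/Per/Nr1d_KO stood apart from both other lines in 2 further Polycomb genes. Epop, an accessory subunit of PRC2.1, was at 1067 and 1083 normalized counts there, 498 and 509 in Cry/Per_KO-labelled libraries and 504 and 466 in Per/Nr1d_KO, with -1.09 ± 0.079 (adjusted p = 7.5e-09) and -1.15 ± 0.079 (adjusted p = 2.7e-09) in those comparisons. E2f6, a DNA-binding subunit of the PCGF6 complex, went the other way, at 1022 and 1087 in Cry/Per/Nr1d_KO-labelled libraries, 2059 and 2191 in Cry/Per_KO-labelled ones and 2081 and 1932 in Per/Nr1d_KO, with 1.01 ± 0.067 (adjusted p = 3e-09) and 0.93 ± 0.067 (adjusted p = 5.7e-09). The first of these stood beside a chromosome 12 median of 0.35 and was within the fold limit with that subtracted. Both comparisons use the same Cry/Per/Nr1d_KO-labelled libraries. Cdca7, which activates the remodeller HELLS for DNA methylation, was at 1915 and 1930.4 in Cry/Per_KO-labelled libraries against 4433 and 4390.1 in Cry/Per/Nr1d_KO-labelled ones (-1.20 ± 0.050, adjusted p = 2e-11) and 4029 and 4202 in Per/Nr1d_KO. Setdb1, an H3K9 methyltransferase on chromosome 3, was at 3560.4 and 3469 in Cry/Per_KO-labelled libraries, 7446 and 7621 in Cry/Per/Nr1d_KO-labelled ones and 10257 and 10613 in Per/Nr1d_KO (-1.10 ± 0.046, adjusted p = 1.7e-11, chromosome median -0.65, with which subtracted it was within the fold limit). Smarca2, the BRM ATPase of BAF, was at 5919 and 5877 in Cry/Per_KO-labelled libraries, 3128 and 3316 in Cry/Per/Nr1d_KO-labelled ones and 2986 and 2629.9 in Per/Nr1d_KO (0.87 ± 0.059, adjusted p = 3.3e-09). Mbd2, a reader of methylated DNA, was lower in Per/Nr1d_KO (4441 and 3917) than in Cry/Per/Nr1d_KO-labelled libraries (8432 and 9292, -1.09 ± 0.062, adjusted p = 2.6e-10) and Cry/Per_KO-labelled ones (10074 and 10497, -1.30 ± 0.062, adjusted p = 2e-11). Between Per/Nr1d_KO and Cry/Per_KO-labelled libraries, Kdm5b, an H3K4 demethylase, was also higher (1.12 ± 0.053, adjusted p = 2.1e-11) and Zbtb4, which binds methylated CpG, lower (-1.28 ± 0.048, adjusted p = 1.3e-12).

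Several genes of the list, Dnmt1, Uhrf1 and Ezh2 among them, are known to follow the cell cycle, so 30 proliferation genes were set beside them, with shares called that were below the 16.8%, 20.7% and 29.0% of all genes in the 3 comparisons. None was called by edgeR or DESeq2 between Cry/Per_KO-labelled and Cry/Per/Nr1d_KO-labelled libraries, although 28 of the 30 had an unadjusted p under 0.05 (9 higher and 18 lower at an adjusted p under 0.05), and their median log2 fold change was -0.16. Between Per/Nr1d_KO and Cry/Per/Nr1d_KO-labelled libraries 4 were called (13.3%), with Mki67 at -0.91 ± 0.058, Ccnb2 at -1.19 ± 0.045, E2f2 at -1.07 ± 0.095 and Rrm2 at 1.11 ± 0.044. Between Per/Nr1d_KO and Cry/Per_KO-labelled libraries 3 were called (10%), with Ccnb2 at -1.96 ± 0.046, E2f2 at -1.35 ± 0.094 and Gins2 at 0.85 ± 0.053. With the medians of their chromosomes subtracted, Mki67 (chromosome 7, -0.11) and Ccnb2 (chromosome 9, -0.46) in the former and Gins2 (chromosome 8, 0.11) in the latter were within the fold limit. The list medians in the latter comparisons were -0.046 and 0.013, and at an adjusted p under 0.05 without the fold limit 8 genes were higher and 14 lower in the former and 13 higher and 14 lower in the latter. The part of proliferation in the levels of Dnmt1 and Phf19 was not tested.

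The last comparison asked whether any loss in the list goes with developmental genes that are silent in a line. Of 147 developmental transcription factor genes, 84 were expressed in at least 1 line (at least 100 normalized counts in both libraries), and 40 of these were silent (at most 3 raw counts in both libraries) in another. Of the 84, 31 (36.9%) were silent in Cry/Per_KO-labelled libraries, 25 (29.8%) in Per/Nr1d_KO and 1 (1.19%) in Cry/Per/Nr1d_KO-labelled ones. Among all 12396 genes expressed in a line, the corresponding shares were 1.27%, 1.06% and 0.218%. The developmental list was chosen with earlier results of these data known, so that nothing is read from the excess. Of 27 expressed Hox genes, 18 were silent in Cry/Per_KO-labelled libraries, 10 in Per/Nr1d_KO and 0 in Cry/Per/Nr1d_KO-labelled ones. By the same rule 0 of the 41 chromatin genes were silent anywhere, and the lowest of them, Tet1, had 43 and 56 raw counts in the line where it was lowest. Of the developmental genes 61 passed the filter on the mean, some only through the line where they are expressed, so no share of calls is given for them.

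**Figure D4:**
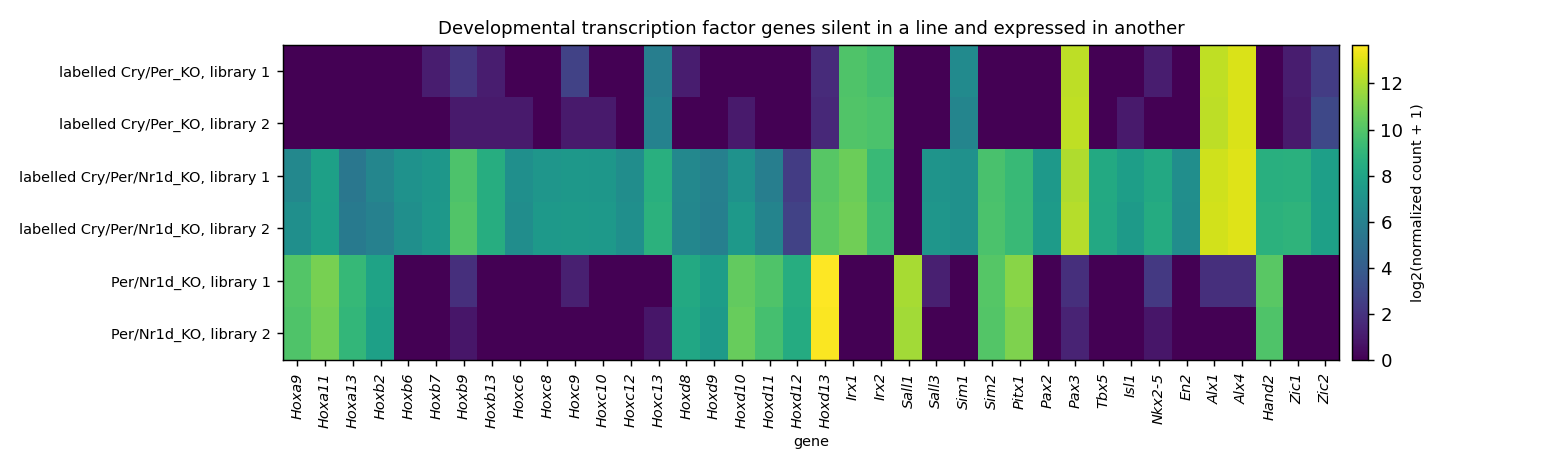
Developmental transcription factor genes that were silent in a line and expressed in another (38 of the 40), as log2(normalized count + 1) in each library. Dark cells are at or near 0 counts: 29 of the genes shown in Cry/Per_KO-labelled libraries, 24 in Per/Nr1d_KO and 1 (Sall1) in Cry/Per/Nr1d_KO-labelled ones.

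The silent sets took in genes of limb, craniofacial and heart identity. Hoxd13, the most posterior gene of the HoxD cluster, was at 13200 and 12547 normalized counts in Per/Nr1d_KO, 1122 and 1198 in Cry/Per/Nr1d_KO-labelled libraries and 2.23 and 1.96 in Cry/Per_KO-labelled ones. Hoxa9, Hoxa11, Hoxa13, Hoxb2 and Hoxd8 to Hoxd12 were likewise silent in Cry/Per_KO-labelled libraries and expressed in Per/Nr1d_KO, as were Pitx1 (2455 and 2112 in Per/Nr1d_KO), which specifies the hindlimb, Sim2 and Hand2. The reverse held for Alx1, Alx4 and Pax3, genes of craniofacial mesenchyme and neural crest. Alx4 was at 7674 and 7743 in Cry/Per_KO-labelled libraries and 8183 and 8223 in Cry/Per/Nr1d_KO-labelled ones, against 2.54 and 0 in Per/Nr1d_KO, and Irx1 and Irx2 showed the same pattern. Hoxb6, Hoxb7, Hoxb9, Hoxb13, Hoxc6, Hoxc8, Hoxc10, Hoxc12, Tbx5, Pax2, Isl1, Nkx2-5, En2, Sall3 and Zic1 were expressed in Cry/Per/Nr1d_KO-labelled libraries and silent in both other lines, and Hoxc9, Hoxc13, Sim1 and Zic2 were silent in Per/Nr1d_KO alone. Tbx5, the forelimb and heart factor, was at 319.6 and 311 in Cry/Per/Nr1d_KO-labelled libraries and at 0 in the others. Sall1 was expressed in Per/Nr1d_KO alone (3866 and 3542). Apart from Hoxb9 (927 and 1004), the genes expressed in Cry/Per/Nr1d_KO-labelled libraries alone did not exceed 473 normalized counts there, and whether all cells or a few carried them cannot be told apart in bulk RNA.

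Set beside these genes, the 41 chromatin genes differed between the lines by folds and not by presence. Auts2, a Polycomb gene outside the 41, did differ by presence, with 0 counts in each Cry/Per_KO-labelled library. In Cry/Per_KO-labelled libraries, with 31 silent developmental genes, Tet1, Dnmt3b and Pcgf6 were called lower and Ezh1 and Kmt2a higher than in Cry/Per/Nr1d_KO-labelled ones, with 1 silent gene, and the summed EZH level was higher there while Eed was -0.66 on the log2 scale. In Per/Nr1d_KO, with 25 silent genes, Cbx6, Cbx8 and Phf19 were lower and Jarid2 and Tet2 higher than in the same reference. With the chromosome median subtracted, Kmt2a (0.45) and Dnmt3b (-0.72) in Cry/Per_KO-labelled libraries were within the fold limit. So were Jarid2 (0.61) and Tet2 (0.76) in Per/Nr1d_KO. Ezh2, which makes up most of the EZH sum, was not called (0.55, chromosome 6 median 0.34). Not every developmental gene was lower in the lines with more silent ones. Meox1, a homeobox gene of the somites named only as an example, was at 10.7 and 10.00 normalized counts in Cry/Per/Nr1d_KO-labelled libraries, 54.5 and 35.3 in Cry/Per_KO-labelled ones and 254 and 238 in Per/Nr1d_KO. No tally of such genes is given, because of the limit of the filter stated above. With 3 lines, and levels of RNA alone, a link between any of these genes and the silent state cannot be tested, and neither histone marks nor DNA methylation were measured.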

How the data were processed

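Poly-A RNA of 6 libraries (3 immortalized MEF lines, 2 libraries each) was sequenced by the authors, aligned with STAR to mm10 and counted with featureCounts, and they deposited raw read counts per gene with Entrez IDs. How the counting treated strand and reads with several matches is not given in the sources used here. Of 27179 IDs, 25275 (93%) were given symbols from the RefSeq table. The deposited tables of DESeq2 1.22.2 comparisons were not used.

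Counts were tested with edgeR 4.0.16 in R 4.3.3 (TMM scaling, quasi-likelihood test, 3 groups and all 6 libraries in 1 fit) over the 11934 genes whose normalized counts averaged 100 or more, with Benjamini-Hochberg adjustment over all of them. Standard errors are the log2 fold change divided by the square root of F. A gene was called at an adjusted p under 0.05 and a fold above 1.75. The script was tested on simulated counts. DESeq2 1.42.0, other size factors, other filters and thresholds, 2-group fits, a replicate block, leaving out each library, subtracting chromosome medians and exchanging the genotype labels were alternatives. A silent gene had at most 3 raw counts in both libraries of a line, a floor that covers counting error only.

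The 41 genes and the other lists were chosen with earlier results of these data known. All 41 are named, and of the other lists the genes silent in 1 line and expressed in another, and, per comparison, up to 3 called genes in each direction, chosen by size of change. A few genes of these other lists are not reported here. Upstream windows and gene positions are from RefSeq, assembly GRCm38.p6, and 35 of the 41 genes matched the promoter table. Levels per kb are divided by the union of exons in the GENCODE vM21 annotation, which also gave overlaps and shared stretches of 50 bases.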

Additional observations from a re-analysis of the deposited data

How the results depend on the processing

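With 1 library left out at a time, 5 to 6 members were called between Cry/Per_KO-labelled and Cry/Per/Nr1d_KO-labelled libraries. Between Per/Nr1d_KO and the latter 4 to 5 were called, and between Per/Nr1d_KO and the former 8 to 11. The counts given above were 5, 5 and 11, against 16.8%, 20.7% and 29.0% of all genes. Shares of all genes with a library left out are not given here, so these ranges show only how far the calls of the list moved. In the same order of comparisons, 3, 3 and 6 members were called under DESeq2 at an adjusted p under 1e-22, against 9.24%, 14.8% and 21.3% of all genes. With no limit on the fold 25, 24 and 38 were, against 76.4%, 75.8% and 82.1%. Tested against the fold limit itself (edgeR glmTreat), 1 and 6 were called in the first and last comparison, against 11.8% and 23.8% of all genes. With the chromosome median subtracted, 3 were called between Per/Nr1d_KO and Cry/Per/Nr1d_KO-labelled libraries, against 19.5% of all genes. With the genotype labels exchanged, 11 and 5 were called in the 2 comparisons of Per/Nr1d_KO, against 29.0% and 20.7%. Subtracting the chromosome median turned the sign of Aebp2 (-0.11), Dnmt1 (-0.0018) and Dnmt3a (-0.017) in the first comparison, of Pcgf6 (-0.054) and Kmt2a (0.0073) in the second, and of Ash1l (-0.12) and Tet2 (-0.030) in the third, by construction, none of them called before except Tet2. A further 34 values of 21 members, all with an adjusted p of 0.05 or more, changed sign under some setting. The replicate block gave 5, 5 and 11 calls, against 2002, 2468 and 3457 of the 11934 genes tested. Same-numbered libraries did not deviate together (correlations of -0.17, -0.015 and -0.068), so that they share only a number. With the numbers of the Cry/Per_KO-labelled libraries crossed, an alternative added after seeing the data, the block also gave 5, 5 and 11. Of all genes tested, 2004, 2466 and 3461 were called with it. Silent developmental genes numbered 40 to 43 with 1 library left out, 56 with expression set at 20 normalized counts and 29 with silence set at 0 counts. The germline genes described below as silent in a line and expressed in another numbered 1 at 20 normalized counts, and 0 to 1 with 1 library left out (1 without library 2 of Per/Nr1d_KO). Depth limits Tet1 most, with 43 and 56 counts in the line where it was lowest.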

Other observations

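Germline genes are a class that variant PRC1 with PCGF6 and DNA methylation keep silent in other tissues, and 39 of them were looked at beside the chromatin genes. Of these, 6 were expressed in at least 1 line, and 0 of the 6 were silent in another line by the rule used for the developmental genes. Only 3 passed the filter on the mean. Between Cry/Per_KO-labelled and Cry/Per/Nr1d_KO-labelled libraries, edgeR and DESeq2 each called 0 of them, and 1 had an unadjusted p under 0.05. Stag3, a meiotic cohesin subunit, was at 418 and 393 normalized counts in Per/Nr1d_KO against 18.6 and 27.8 in Cry/Per/Nr1d_KO-labelled libraries and 20.03 and 17.7 in Cry/Per_KO-labelled ones. It passed the filter only through its level in Per/Nr1d_KO, so that no test of that difference is given. Tex15, a meiotic and piRNA-pathway gene, was lower in Per/Nr1d_KO, at 298 and 304, against 855 and 927 in Cry/Per/Nr1d_KO-labelled libraries and 857 and 769.8 in Cry/Per_KO-labelled ones (-1.56 ± 0.091 and -1.43 ± 0.092, edgeR adjusted p = 3.9e-10 and 9.3e-10). Taf7l, a testis form of a TFIID subunit named after its values were seen, was at 241 and 249.9 in Cry/Per/Nr1d_KO-labelled libraries, 10.0 and 18.7 in Cry/Per_KO-labelled ones and 3.80 and 5.52 in Per/Nr1d_KO, and its mean was below the filter.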
